A study of Mus musculus with 6 samples.

Results

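The genes described here encode the chaperones of the cytosol and the mitochondrion, chosen by symbol alone: the Hspa, Hspb, Dnaja, Dnajb, Cct2 to Cct8 and Bag1 to Bag6 genes with Hspd1, Hspe1, Hsph1 and Hsp90a, without the endoplasmic reticulum members Hspa5, Dnajb9 and Dnajb11. The rule found 50 genes with 64 probes, of 16593 genes and 25697 probes on the array. Levels came from whole liver of wild-type C57BL/6 mice on Illumina BeadChip arrays, where each probe is read as the light from labelled RNA caught on its beads. Ad-MafG was given to 3 mice and Ad-Control, which the labels also call Ad-CMV, to another 3. Treatment lasted 5 days and ended with fasting for 4 to 6 h, each array is 1 mouse, and the series title names MafG overexpression. The sources used here do not state the promoter and insert of the Ad-MafG vector, and all 6 arrays lay on 1 slide.

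Chaperones bind unfolded protein and keep it from clumping. HSP70 proteins cycle on and off their clients with the help of J-domain partners (the DNAJ proteins), which start the cycle, and of HSP110 and BAG proteins, which release the nucleotide. HSP90 takes clients at a later step, the ring-shaped CCT complex folds actin, tubulin and others in the cytosol, HSP60 with its lid HSP10 does so in the mitochondrion, and small heat shock proteins hold unfolded protein without using ATP. Some of these genes are on at all times, some are switched on by heat and other stress through the factor HSF1, and some, such as Hspa8 and Hspd1, are abundant at rest and known to rise further with heat. In liver, constitutive chaperones such as Hspa8 and the mitochondrial Hspa9 and Hspd1 are abundant.

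Of the 50 genes, 37 were tested, because their probe was detected on at least 3 of the 6 arrays. The other 13 were Hspa1l, Hspa13, Hspa14, Dnajb3, Dnajb5, Dnajb7, Dnajb8, Hspb2, Hspb3, Hspb7, Cct6b, Cct8l1 and Bag2. Of these, Cct6b was detected on 1 Ad-MafG and 1 Ad-Control array and the other 12 on 0 arrays. Among the 37, 32 were detected on all 6 arrays, and Hspa1a, Hspa12a, Hspa12b, Hspa4l and Dnajb13 on some. Hspa1a and Hspa12b were each detected on 3 Ad-MafG arrays and 1 Ad-Control array. The mean log2 normalized intensity over all arrays ran from 5.84 for Hspa12a to 14.9 for Hspa8, the constitutive cytosolic HSP70, with a median of 9.66 over the 37 genes and 8.70 over all 8827 genes tested. Each level is that of 1 probe, so levels of different genes were not ranked as amounts of RNA. In whole tissue, fewer cells of a type and less RNA per cell cannot be told apart.

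Between 12079 and 13042 probes were detected per array, and the median non-normalized signal was 181.6 to 185.8 on Ad-MafG arrays and 160.6 to 180 on Ad-Control arrays. The single Mafg probe had a log2 intensity of 10.32 ± 0.06 in Ad-MafG and 10.86 ± 0.16 in Ad-Control livers (SD, n = 3 each), which is -0.54 on the log2 scale (limma adjusted p = 0.0341). Where it lies relative to the insert is not given, so it does not check the labels, and every direction rests on those labels. With 3 mice a group, precision is limited by their number.

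Few chaperone genes passed the test between Ad-MafG and Ad-Control livers. Hspb6, the small heat shock protein HSP20, rose 1.47-fold and was the only 1 of the 37 past limma's adjusted p of 0.05. Of all genes tested 9.91% passed, 6.29% upward and 3.63% downward. At an unadjusted p under 0.05, 3 chaperone genes were higher (Hspb6, Hspa4 and Cct5) and 6 lower (Dnajb2, Dnajb12, Dnajb13, Hspb1, Hspb8 and Bag5), against 29.8% of all genes in either direction. The groups did not overlap in 9 of the 37, against 36.2% of all genes, with Ad-MafG above in 3 (18.3% of all genes) and below in 6 (17.9% of all genes). The median log2 fold change was -0.02 over the 37 genes and -0.02 over all genes. For 35 of the 37, the 95% interval of the change lay within a 2-fold difference either way, as it did for 86.3% of all genes. The exceptions were Hspa1a, with an interval from -0.54 to 1.36 on the log2 scale, and Dnaja1, with one from -1.07 to 0.13.

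**Figure D1:**
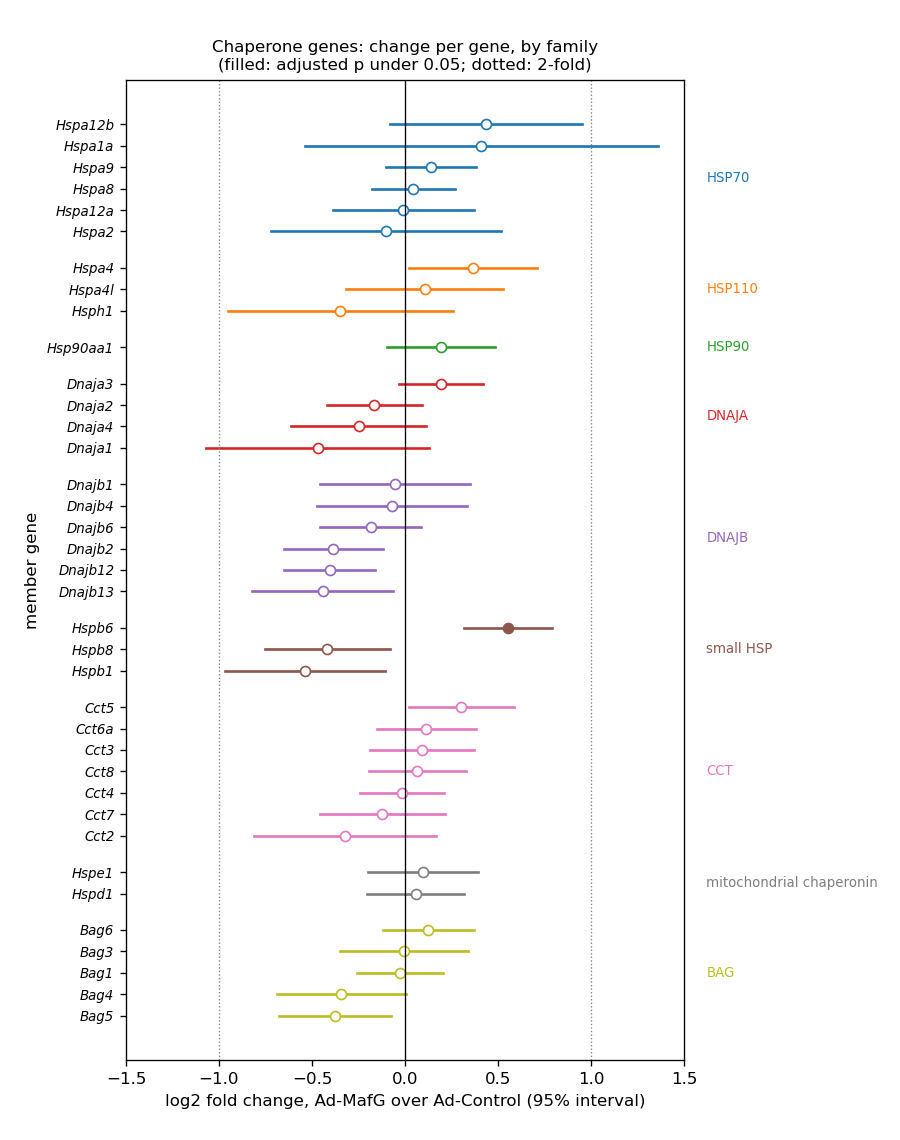
Log2 fold change, Ad-MafG over Ad-Control, of the 37 tested chaperone genes by family (vertical axis), with bars for the 95% interval from limma. Only Hspb6 (filled point, 0.55) passed the threshold, and the bars of Hspa1a and Dnaja1 alone reach past the dotted lines at a 2-fold difference.

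The small heat shock proteins went in both directions. Hspb6 had log2 intensities of 11.34, 11.44 and 11.47 in Ad-MafG livers and of 10.77, 10.86 and 10.96 in Ad-Control livers. All 3 Ad-MafG livers were above all 3 Ad-Control livers, and the gap between the groups was wider than either group's own range. Its log2 fold change was 0.55 ± 0.10 (SE, adjusted p = 0.0238). The non-normalized signal was 2958.5, 3087.3 and 3212.1 in Ad-MafG against 1559.2, 2001.3 and 1922.6 in Ad-Control livers. In the authors' deposited table its mean scaled intensity was 2634.6 for Ad-MafG and 1807.4 for Ad-Control, with a difference score of 107.7. Median scaling ended the call, at 0.34 on the log2 scale (adjusted p = 0.108). It was also lost without Ad-MafG 1 (adjusted p = 0.0672), Ad-MafG 2 (0.0655), Ad-MafG 3 (0.087) or Ad-Control 1 (0.065), with a log2 fold change from 0.51 to 0.59 in these 4 fits.

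Hspb6 is best known from muscle, so markers of other cells are given beside it. In the skeletal muscle list, Myh1, Myh4, Acta1, Ckm, Tnnt3 and Mylpf were not past the detection filter, and the remaining gene, Des, had a log2 change of -0.13 (adjusted p = 0.667). Among stellate cell and fibroblast markers 10 were tested, of which 4 rose and 0 fell, and Tagln was not past the filter. Their summed normalized intensity, on the linear scale, was 13179 to 16019 in Ad-MafG and 11743 to 12583 in Ad-Control livers. Most of this sum is Dcn, the brightest of them, which did not pass (log2 change 0.17, adjusted p = 0.34, groups overlapping). The collagen gene Col1a1 had the largest log2 change of the list, 1.48 (adjusted p = 0.025), and 2 of the 10 lay below 0. Acta2 in this list, the smooth muscle actin gene, had 0.61 (adjusted p = 0.442, groups overlapping). Of 10 tested macrophage markers 5 rose and 0 fell, with a summed intensity of 28957 to 30952 in Ad-MafG and 14403 to 19425 in Ad-Control livers. Adgre1, the macrophage surface protein F4/80, had a log2 change of 1.40 (adjusted p = 0.00993). The resident macrophage receptor genes Marco, at -1.06 (adjusted p = 0.101, groups not overlapping), and Timd4, at -1.48 (adjusted p = 0.249, detected on 1 Ad-MafG array), lay the other way. Clec4f and Vsig4, also receptor genes of resident macrophages, lay above 0, at 0.27 and 0.24 (adjusted p = 0.355 and 0.462, groups overlapping). Among 8 hepatocyte markers 0 passed limma's test and 2 had an unadjusted p under 0.05, namely Cyp3a11 at 0.39 and Hnf4a at -0.33. Log2 changes were below 0 for 7 of the 8, against 4659 of all 8827 genes. Of these, Apoa1, Serpina1c and Ttr had -0.06, -0.05 and -0.03, and Cps1 had -0.24 (adjusted p = 0.225). The Alb and Tat probes were dim, with means of 6.36 and 6.26 in Ad-MafG and 6.70 and 6.42 in Ad-Control livers. The sums were 173374 to 179244 in Ad-MafG and 171445 to 184133 in Ad-Control livers, and the brightest markers make up most of them. The part of these cells in the Hspb6 difference was not tested.

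The other measured small heat shock genes lay lower and did not pass. Hspb1, which encodes the stress-inducible HSP25 of the mouse, had 9.57, 9.01 and 9.43 in Ad-MafG livers and 9.63, 9.89 and 10.10 in Ad-Control livers on the log2 scale. Its groups did not overlap but came within 0.06 of each other, and the log2 fold change was -0.54 ± 0.18 (SE, adjusted p = 0.103). Hspb8, which works with Bag3 in the selective removal of damaged protein, had 11.60, 11.43 and 11.19 in Ad-MafG livers and 11.90, 11.64 and 11.93 in Ad-Control livers. Here the highest Ad-MafG value was again just below the lowest Ad-Control value. The log2 fold change of Hspb8 was -0.42 ± 0.14 (SE, adjusted p = 0.103), and it passed in 2 of 17 alternative fits, with median scaling (-0.68, adjusted p = 0.0369) and with a trended, robust variance (adjusted p = 0.0472).

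The 6 tested DNAJB members all had log2 fold changes below 0, from -0.44 to -0.05, as had 4659 of all 8827 genes. Dnajb9, left out of the members as a gene of the endoplasmic reticulum, had 0.03 (adjusted p = 0.924). Of the 6, 0 passed limma's adjusted threshold and 3 had an unadjusted p under 0.05. Such a p was reached by 29.8% of the whole set of tested genes. Dnajb1 and Dnajb4 each kept their sign in 15 of 17 alternative fits. Dnajb12, an endoplasmic reticulum membrane protein whose J domain faces the cytosol, had 8.78, 8.86 and 8.82 in Ad-MafG livers and 9.27, 9.09 and 9.33 in Ad-Control livers. The Ad-MafG values were close together and below every Ad-Control value. Its log2 fold change was -0.41 ± 0.10 (SE, adjusted p = 0.0523), and it passed in 7 of 17 alternative fits with the same sign in all 17. Dnajb2, which helps deliver clients to the proteasome, had 9.84, 10.07 and 9.93 in Ad-MafG livers and 10.34, 10.21 and 10.45 in Ad-Control livers. Its groups also did not overlap, with a log2 fold change of -0.39 ± 0.11 (SE, adjusted p = 0.0728). It passed in 3 of 17 alternative fits, namely without background correction, with median scaling and with a trended, robust variance. The authors' deposited table gives difference scores of -20.4 for Dnajb12 and -24.4 for Dnajb2. Dnajb13, a gene of cilia and sperm tails, was detected on 2 arrays of each group and had a log2 change of -0.44 (adjusted p = 0.119). Dnajb1, the main stress-inducible J protein of the cytosol, had one of -0.05 with a 95% interval from -0.46 to 0.35.

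**Figure D2:**
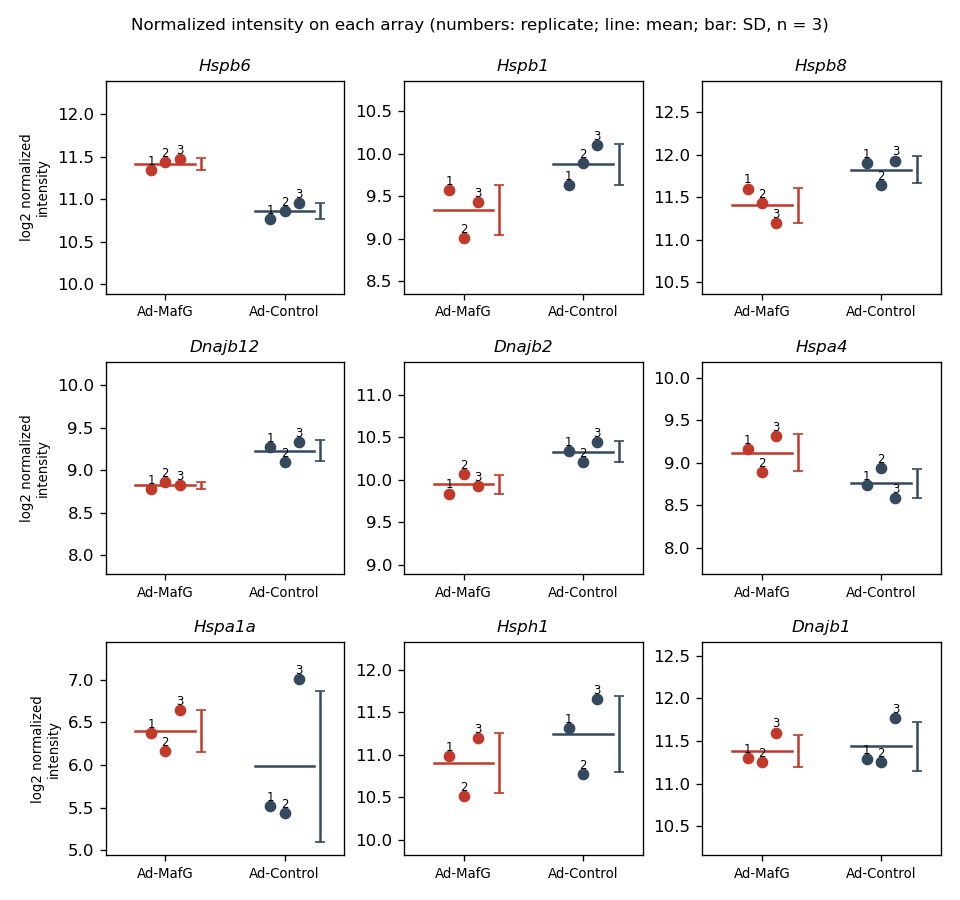
Log2 normalized intensity (vertical axis) on each array for 9 chaperone genes, Ad-MafG left and Ad-Control right, with points for mice, lines for means and bars for the SD of 3 mice. Hspb6 separates upward and Hspb1, Hspb8, Dnajb12 and Dnajb2 downward, while in Hspa1a the Ad-Control 3 point at 7.01 lies above all others.

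Among DNAJA genes, which pair with HSP70 in the cytosol and, for Dnaja3, in the mitochondrion, 0 of 4 passed limma's test and 0 had an unadjusted p under 0.05. Dnaja3 had 12.71, 12.71 and 12.86 in Ad-MafG livers and 12.55, 12.59 and 12.56 in Ad-Control livers, with the Ad-MafG values all above. Dnaja3 thus differed by 0.19 ± 0.10 on the log2 scale (SE, adjusted p = 0.225). Dnaja1, a stress-inducible member, had 6.30, 6.46 and 5.84 in Ad-MafG livers and 6.59, 6.26 and 7.16 in Ad-Control livers, which overlapped, with a log2 fold change of -0.47 (adjusted p = 0.259). Dnaja2 had 3 probes, of which 2 were past the detection filter. Whether these 2 differ was not tested. The brighter had a log2 change of -0.16 (adjusted p = 0.362 over probes). The dimmer had 7.04, 7.01 and 7.26 in Ad-MafG livers and 7.52, 7.58 and 7.66 in Ad-Control livers, with a log2 fold change of -0.48 (adjusted p = 0.0393 over probes). Of 45 chaperone probes past the detection filter this one and that of Hspb6 passed, against 9.9% of all 12893 probes. The groups did not overlap for 10 of the 45, against 35.9% of all probes.

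The HSP70 genes and their HSP110 release factors showed no call. Hspa8 had 14.90, 14.92 and 14.91 in Ad-MafG livers and 14.85, 14.79 and 14.95 in Ad-Control livers. These groups overlapped, and the log2 fold change of 0.04 had a 95% interval from -0.18 to 0.27. The mitochondrial HSP70 gene Hspa9 had 14.28, 14.13 and 14.32 in Ad-MafG livers and 14.08, 14.17 and 14.05 in Ad-Control livers, at a log2 fold change of 0.14 with an interval from -0.10 to 0.38. Hspa4, an HSP110 family member, had 9.16, 8.89 and 9.31 in Ad-MafG livers and 8.74, 8.94 and 8.59 in Ad-Control livers. Only 1 Ad-MafG liver lay within the Ad-Control range, and the log2 fold change was 0.37 ± 0.15 (SE, adjusted p = 0.149). Hsph1, the stress-inducible HSP110, had 10.98, 10.51 and 11.20 in Ad-MafG livers and 11.31, 10.77 and 11.65 in Ad-Control livers, with a log2 fold change of -0.35 (adjusted p = 0.406). Hspa12b, an HSP70 relative known from endothelium, had 5.86, 5.96 and 6.43 in Ad-MafG livers and 6.06, 5.37 and 5.52 in Ad-Control livers. These overlapped through Ad-Control 1, with a log2 change of 0.44 (adjusted p = 0.229), beside 7 tested endothelial markers of which 0 passed limma's test and 1 had an unadjusted p under 0.05. That 1 was Lyve1, a receptor of liver sinusoidal and lymphatic endothelium, at 1.05 (adjusted p = 0.0542) with all Ad-MafG livers above. The summed intensity of the list was 11966 to 13827 in Ad-MafG and 10110 to 11443 in Ad-Control livers. Most of this sum is Clec4g, the brightest of the list, which did not pass (log2 change 0.25, adjusted p = 0.213, groups overlapping). Of the 7 markers 2 lay below 0, and Kdr was not past the filter. The part of endothelial cells in the Hspa12b value was not tested. Hspa2, Hspa12a and Hspa4l had values from -0.10 to 0.11. Hsp90aa1, the stress-inducible cytosolic HSP90, had 7.54, 7.31 and 7.64 in Ad-MafG livers and 7.18, 7.34 and 7.40 in Ad-Control livers, at a log2 fold change of 0.20 with a 95% interval from -0.10 to 0.49.

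No chaperonin gene passed. Of 7 measured CCT subunit genes 0 passed limma's test and 1 had an unadjusted p under 0.05, with log2 fold changes from -0.32 to 0.30. That 1 was Cct5, at 7.08, 7.13 and 7.24 in Ad-MafG livers and 7.03, 6.81 and 6.69 in Ad-Control livers, which did not overlap (log2 fold change 0.30 ± 0.12 SE, adjusted p = 0.146). Its signal was dim, and without background correction its log2 fold change was 0.15. Cct6a, the brightest CCT probe, had 12.41, 12.44 and 12.49 in Ad-MafG livers and 12.20, 12.29 and 12.51 in Ad-Control livers, at a log2 fold change of 0.11 with an interval from -0.15 to 0.38. The CCT subunits join the complex in equal numbers, and Cct2, at -0.32 (interval -0.81 to 0.16), was at the other end of their range. Hspd1, which encodes HSP60, had 13.47, 13.39 and 13.43 in Ad-MafG livers and 13.25, 13.33 and 13.55 in Ad-Control livers. Its log2 fold change was 0.06 with an interval from -0.21 to 0.32. Its lid Hspe1 had 11.83, 11.92 and 11.94 in Ad-MafG livers and 11.74, 11.64 and 12.03 in Ad-Control livers. These overlapped too, at a log2 fold change of 0.09 with an interval from -0.20 to 0.39.

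Of 5 measured BAG genes 0 passed limma's test and 1, Bag5, had an unadjusted p under 0.05. Bag5, which acts on HSP70 through several BAG domains, had 9.20, 8.98 and 8.87 in Ad-MafG livers and 9.32, 9.30 and 9.55 in Ad-Control livers. Its values were lower in every Ad-MafG liver than in any Ad-Control liver, with a log2 fold change of -0.38 ± 0.13 (SE, adjusted p = 0.103). Bag1, the brightest BAG probe, had 12.95, 13.06 and 12.92 in Ad-MafG livers and 12.93, 13.03 and 13.06 in Ad-Control livers (log2 fold change -0.03, 95% interval -0.26 to 0.20). Bag3, the stress-inducible partner of Hspb8, had -0.003 with an interval from -0.35 to 0.34. Bag4 and Bag6 had log2 fold changes of -0.34 and 0.13.

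Array Ad-Control 3 had higher values of many chaperone genes than the other Ad-Control arrays. Of the 37 genes, 29 were higher on it than on both, against 32.9% of all genes. A list of textbook heat-responsive genes was drawn up with these values known, so its counts describe these arrays and support nothing. In it, Hspa1a, Hspa8, Hsph1, Hsp90aa1, Dnaja1, Dnajb1, Hspb1, Hspd1, Hspe1 and Bag3 were each higher on Ad-Control 3 than on both other Ad-Control arrays, as were 19 of the other 27 chaperone genes. Ad-Control 3 was the highest of all 6 arrays for 9 of these 10 and for 21 of the 37 chaperone genes, against 23.3% of all genes. The exception was Hsp90aa1, at 7.40 on Ad-Control 3, 7.34 on Ad-Control 2 and up to 7.64 in Ad-MafG livers. The median difference of Ad-Control 3 from the mean of the other Ad-Control mice was 0.39 on the log2 scale over the 10 genes, 0.15 over the other 27 and 0 over all genes. Hspa1a, the classical heat-induced HSP70, had 6.38, 6.16 and 6.65 in Ad-MafG livers and 5.52, 5.43 and 7.01 in Ad-Control livers. Ad-Control 3 was thus above every Ad-MafG liver and the other Ad-Control mice below every one. The SD of Hspa1a in Ad-Control, 0.89, was exceeded by 0.419% of genes. Its log2 fold change was 0.41 ± 0.40 (SE, adjusted p = 0.529), and without background correction it was 0.13. It passed in 1 of 16 alternative fits, the one without Ad-Control 3 (adjusted p = 0.0426). That fit drops the array with its highest value, which was known beforehand, so the pass is no support for a difference. The probe was not detected on Ad-Control 1 and 2, so that only a bound can be given. With Hspa1a on those arrays set to their lowest detected signal, the mean of Ad-MafG livers was 1.56-fold higher. The non-normalized signal was 225.8, 210 and 243.9 in Ad-MafG livers and 156.3, 170.3 and 229.2 in Ad-Control livers. The 1.56 was computed with the reported normalization only, has no error and leaves out Ad-Control 3. Without that mouse, 2 chaperone genes passed, Hspb6 and Hspa1a, against 3.14% of all genes. Dnajb1 had 11.30, 11.25 and 11.60 in Ad-MafG livers and 11.29, 11.25 and 11.77 in Ad-Control livers, so that mice 1 and 2 of both groups were nearly level. Bag3 had 12.20, 12.06 and 12.24 in Ad-MafG livers and 12.04, 12 and 12.47 in Ad-Control livers. What set Ad-Control 3 apart was not tested.

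**Figure D3:**
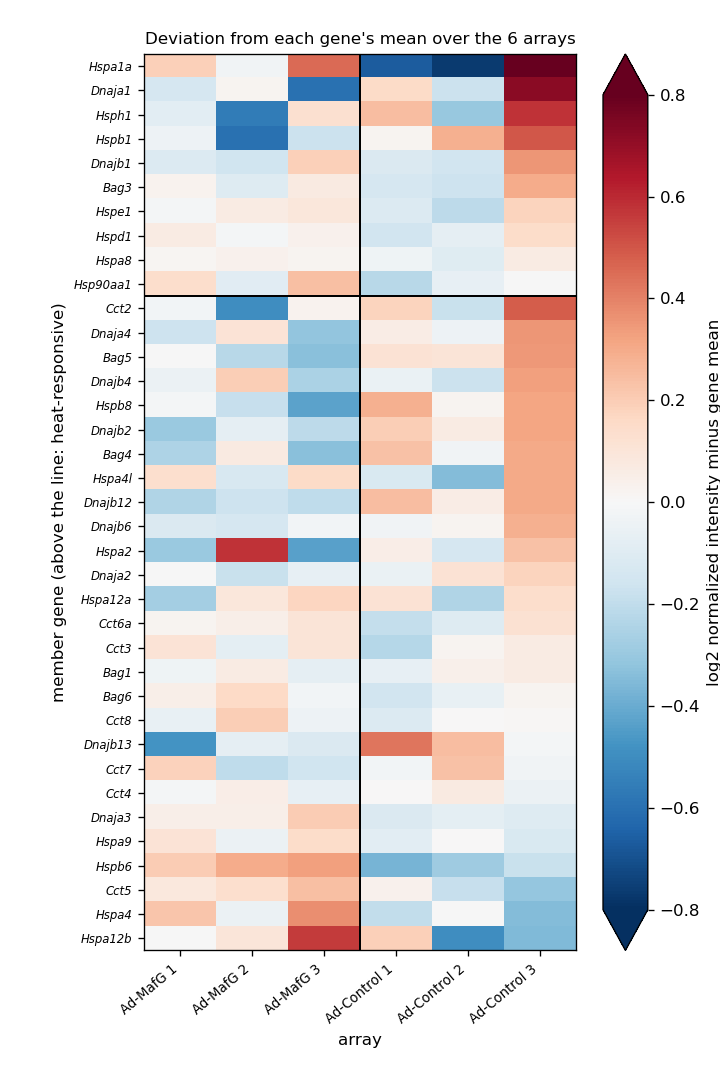
Difference of each array (horizontal axis, Ad-MafG left) from a gene's mean over the 6 arrays, in log2 units by colour, for the 37 tested chaperone genes. The genes above the line are the 10 textbook heat-responsive ones, constitutively abundant Hspa8 and Hspd1 included, of which 9 are highest on array Ad-Control 3.

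HSF1 binds heat shock elements, which are repeats of GAA in alternating direction. The 150 bases before the start are shown for 4 genes with such a repeat, since Hspa1a, Hspe1 and Hspb1 were high on Ad-Control 3 and Hspb6 was the gene that passed. They are RefSeq starts on build GRCm38.p6, written 5′ to 3′ on the gene's own strand, with matches to GAANNTTC or TTCNNGAA in capitals. Hspa1a lies at chr17:34972157-34972306 on the minus strand, Hspe1 at chr1:55087998-55088147 on the plus strand, Hspb1 at chr5:135887769-135887918 on the plus strand, and the second of the 2 Hspb6 starts at chr7:30553151-30553300 on the plus strand.
Hspa1a: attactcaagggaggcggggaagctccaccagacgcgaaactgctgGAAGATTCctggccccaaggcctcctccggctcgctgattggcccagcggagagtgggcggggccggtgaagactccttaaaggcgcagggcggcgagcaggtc
Hspe1: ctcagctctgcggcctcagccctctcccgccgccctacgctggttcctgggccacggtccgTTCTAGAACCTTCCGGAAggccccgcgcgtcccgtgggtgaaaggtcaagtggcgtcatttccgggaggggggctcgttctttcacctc
Hspb1: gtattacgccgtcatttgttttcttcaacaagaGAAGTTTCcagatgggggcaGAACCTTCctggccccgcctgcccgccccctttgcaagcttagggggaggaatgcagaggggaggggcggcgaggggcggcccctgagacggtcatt
Hspb6: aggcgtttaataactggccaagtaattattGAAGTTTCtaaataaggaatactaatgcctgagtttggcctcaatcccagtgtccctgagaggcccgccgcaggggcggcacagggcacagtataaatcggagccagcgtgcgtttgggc

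The run in Hspe1 joins 3 overlapping matches. The 2 Hspd1 starts lie nearby on the opposite strand, and 1 of them, 216 bases from the Hspe1 start, has this stretch in its own promoter. The first Hspb6 start held no match in its 150 bases. Over the full 300 bases, from 250 before to 50 after a start, GAANNTTC or TTCNNGAA on either strand stood in 19 of 59 promoters of the chaperone genes and in 15.1% of all 32851 promoters. The longer heat shock element, either match joined to 1 further repeat at the same spacing, stood in 6 of 59, of Dnajb6, Hspd1, Hspe1 and Hsph1, against 0.603% of all. The antioxidant response element core TGACNNNGC, a sequence to which MafG binds with partners such as NRF2, stood on either strand in 10 of 59 against 12.4% of all. The promoter table held 43 of the 50 genes, and overlapping starts share matches. Of the heat-responsive genes, Hspa1a, Hsph1, Dnaja1, Hspb1, Hspd1, Hspe1 and Bag3 had either match in the 300 bases. None was found for Dnajb1, Hspa8 and Hsp90aa1, of which at least Dnajb1 was in that table. Dnajb1 was 0.49 higher on Ad-Control 3 than the mean of the other Ad-Control mice. This difference was 1.53 for Hspa1a and 0.34 for both Hspe1 and Hspb1. Whether a match went with a high value on Ad-Control 3 was not tested. Hspa1a and its neighbour Hspa1b were identical at 149 of these 150 bases, and the 2 genes are near copies in their coding parts too, so the Hspa1a signal may hold RNA of both.

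The direction of the brightest chaperones depended on the scaling, as did that of bright proteasome genes, given below. For 8 genes the mean log2 intensity was over 12, namely Hspa8, Hspa9, Hspd1, Bag1, Dnaja3, Cct6a, Bag3 and Cct8. With quantile normalization 2 of these 8 were below 0, with a median log2 fold change of 0.06. With median scaling all 8 were below 0, with a median of -0.35, and with the authors' scaled intensities 5 were, with a median of -0.07. With cyclic loess 1 was, with a median of 0.07. Hspa8 had -0.53 with median scaling (adjusted p = 0.0817) and -0.17 with the authors' values (adjusted p = 0.411). The remaining 29 moved less, with a median of -0.10 under quantile normalization and -0.19 under median scaling. Over all genes the median was -0.02 with quantile normalization and -0.09 with median scaling.

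**Figure D4:**
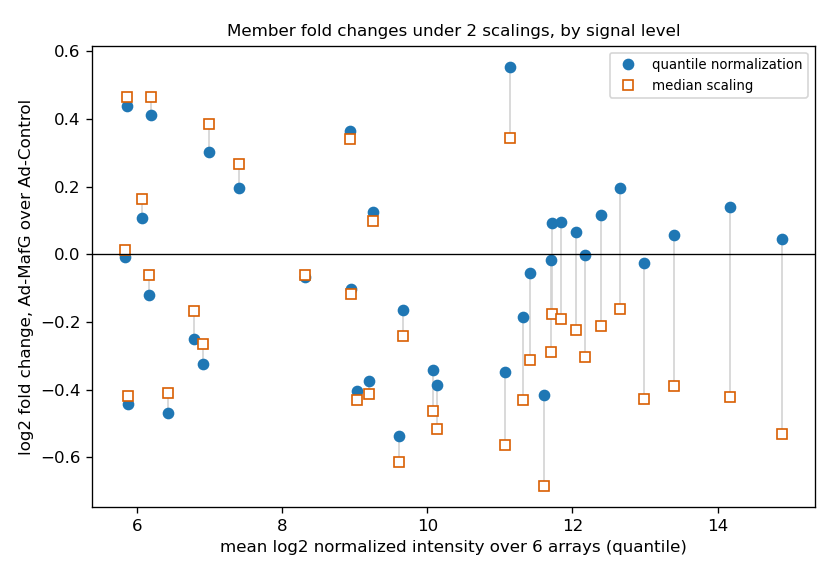
Log2 fold change, Ad-MafG over Ad-Control (vertical axis), of the 37 chaperone genes against their mean log2 intensity (horizontal axis), with quantile normalization (filled) and median scaling (open). Above an intensity of 12, 2 of 8 genes lie below 0 with quantile normalization and 8 of 8 with median scaling.

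Other genes of the folding network also gave few calls. Of 24 tested co-chaperones and regulators of HSP90 and HSP70, 0 rose and 1 fell, against 9.91% of all genes in either direction. This was Ahsa2, a relative of the HSP90 ATPase activator, at 7.25, 7.08 and 7.16 in Ad-MafG livers and 8.13, 7.55 and 8 in Ad-Control livers (log2 fold change -0.72, SE 0.16, adjusted p = 0.0378). Hsf2, a heat shock factor, had -0.30 (adjusted p = 0.0964). Of 16 DNAJC genes, a further group of J proteins, 0 rose and 1 fell. Dnajc12, a partner of the aromatic amino acid hydroxylases, had 7.61, 7.51 and 7.66 in Ad-MafG livers and 8.04, 8.20 and 8.14 in Ad-Control livers (log2 fold change -0.53, SE 0.10, adjusted p = 0.025). Among 16 mitochondrial chaperone partners and proteases 0 rose and 1 fell. Grpel2, a nucleotide exchange factor of Hspa9, had 8.73, 8.45 and 8.34 in Ad-MafG livers and 9.54, 8.99 and 9.28 in Ad-Control livers (log2 fold change -0.76, SE 0.17, adjusted p = 0.0382). In all 3 genes the groups did not overlap. Each was called in only 1 of the 6 fits that left out an array, the one without Ad-Control 2, with an adjusted p of up to 0.115 for Ahsa2, 0.0793 for Dnajc12 and 0.125 for Grpel2. Ahsa2 and Grpel2 also lost the call with the authors' scaled intensities (adjusted p = 0.0509 and 0.0543) and with no detection filter (0.0569 and 0.0589), and all 3 genes lost it with the replicate block (up to 0.0859). Grpel1, the counterpart of Grpel2, which was picked after its values were seen, had a log2 change of 0.06 with an interval from -0.16 to 0.27.

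Limma called 0 of 9 genes of prefoldin and the CCT partners, where 1 had an unadjusted p under 0.05 and the median log2 fold change was -0.09. Of 13 endoplasmic reticulum folding genes it called 0, with 1, Hyou1 at -0.37, under an unadjusted p of 0.05 and a median of 0.04. Of 28 proteasome subunit genes it called 0, and 7 had an unadjusted p under 0.05. With quantile normalization 24 of the 28 were above 0 with a median of 0.15, against 47.2% of all genes, but with median scaling 6 were, with a median of -0.18, against 39.1% of all genes. Mean log2 intensity was over 12 for 17 of the 28, of which 17 were above 0 with quantile normalization and 1 with median scaling. Psmb5 was the lowest in p of the 28, at 0.44 on the log2 scale (adjusted p = 0.0621), or 0.27 with median scaling (adjusted p = 0.16). Whether the chaperone genes differ from these lists was not tested.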

How the data were processed

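Intensities and detection p-values came from the deposited non-normalized table, which holds mean bead intensities per the file headers. The deposited scaled intensity values served as an alternative. The authors' deposited group means of these, with their SD signal over arrays and a signed difference score, were used for description only. The sources used here state neither how the authors scaled them nor the error model behind the score.

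Normalization followed limma's neqc recipe (limma 3.58.1, R 4.3.3): normexp background correction based on detection p-values, offset 16, quantile normalization and log2. Kept were the 12893 probes whose detection p was under 0.05 in 3 or more of the 6 arrays, and the brightest probe stood for each of 8827 genes. Groups were compared with lmFit and eBayes, two-sided, without covariates, with Benjamini-Hochberg adjustment over all genes and a threshold of 0.05. Every adjusted p is limma's. A positive fold change means higher in Ad-MafG. The fit was tested on simulated data.

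Symbols came from the platform annotation, and all 50 identifiers were found in the RefSeq table of GRCm38.p6 under the same symbol.

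The members, gene lists, heat-responsive group and printed promoters were chosen with earlier results of these data known. Any member may be named. Per-array values are given for members past the threshold, for those with the smallest p or highest signal in a family and, chosen after values were seen, for further members with groups that did not overlap or that are heat-responsive. Of other lists up to 4 genes with the smallest p could be named. Marco, Timd4, Clec4f, Vsig4, Dcn, Acta2, Apoa1, Serpina1c, Ttr, Tat and Dnajb9 were named after their values were seen. Alternatives covered background, offset, scaling, detection filter, probe rule, variance model, array weights, a replicate block and leaving out each array.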

Additional observations from a re-analysis of the deposited data

How the results depend on the processing

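The count of all genes called was 875, and it was 1322 without background correction, 1429 with median scaling, 1319 with a trended and robust variance and 141 with the replicate block. With 1 array left out it ranged from 159 to 1169. Of the calls 63.4% were higher in Ad-MafG, against 45.8% with median scaling. Chaperone genes called higher numbered 1, and 0 with median scaling or the replicate block. With 1 array left out they numbered 0 to 2. Called lower were 0 in the reported fit, 1 with offset 50, with detection on all 6 arrays, with the mean of a gene's probes or with array weights, 2 without background correction or with median scaling, 3 with a trended and robust variance, and 0 to 1 with an array left out. Chaperone probes called numbered 2, and 4 without background correction and 0 to 2 with an array left out. Deviations of same-numbered arrays from their group means had correlations across genes of 0.04, -0.14 and -0.12 for numbers 1, 2 and 3. With 3 arrays a group these values cannot decide whether the numbers pair the mice, and the labels state no pairing. With the replicate block Hspb6 had an adjusted p of 0.074.

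Of 37 chaperone genes 21 kept their sign in every alternative. The other 16 changed sign in 32 fits, counted over 17 alternatives. With median scaling Hspa8 had -0.53, Hspa9 -0.42, Hspa12a 0.011, Dnaja3 -0.16, Cct3 -0.18, Cct6a -0.21, Cct8 -0.23, Hspd1 -0.39 and Hspe1 -0.19. With cyclic loess Hspa12a had 0.035 and Bag3 0.022. With the authors' values Hspa8 had -0.17, Hspa9 -0.091 and Hspd1 -0.092, and with array weights Bag3 had 0.0067. With 1 array left out, values ran from -0.42 to 0.089 for Hspa2, -0.13 to 0.12 for Hspa12a, -0.039 to 0.29 for Hspa4l, -0.16 to 0.11 for Dnajb1, -0.18 to 0.079 for Dnajb4, -0.048 to 0.016 for Cct4, -0.017 to 0.11 for Cct8, -0.0072 to 0.14 for Hspd1, -0.068 to 0.0024 for Bag1 and -0.085 to 0.15 for Bag3. The causes were not tested. Signal near background limits Hspa1a, Hspa12a, Hspa12b, Hspa4l and Dnajb13, and the log2 fold change of Hspa1a was 0.13 without background correction.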
